A study of Rattus norvegicus with 35 samples.

Results

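The genes described here belong by name to families of plasma membrane carriers that move sugars, amino acids, carboxylates and organic ions, measured in rat liver. Where each product sits in the cell was not checked. They were taken from the array's gene annotation by name: symbols of the solute carrier families Slc1, Slc2, Slc5, Slc6, Slc7, Slc13, Slc16, Slc22 and Slc38 and of the organic anion transporting polypeptides (Slco), each represented by its brightest probe set that lists a single gene. This gave 101 members among 13439 genes tested, one of which, Slc7a6os, shares the name of its neighbour Slc7a6 but is not a carrier.

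Total liver RNA was hybridised to 35 Affymetrix arrays in 6 groups, and each array is called a liver here. Ligated rats had secondary biliary cirrhosis from double ligation and resection of the common bile duct under midazolam and ketamine, were given weekly vitamin K and were studied 4 weeks later. Control rats carried the label control only. Each kind of rat underwent either hemorrhage followed by resuscitation (H/R) or a sham procedure: control sham (n = 5), control H/R (n = 6), ligated sham (n = 5), ligated H/R (n = 6), ligated and given simvastatin with sham (n = 5), and ligated and given simvastatin with H/R (n = 8). Simvastatin, an inhibitor of cholesterol synthesis, was gavaged in distilled water at 5 mg/kg daily from 3 days before the study, with the last dose 1 h before it. All simvastatin rats were ligated, so the drug was compared with ligated rats alone, and the labels used here do not say whether those received a vehicle. Strain, sex and age were not given in the labels. The comparisons address how ligation, H/R and the drug bear on liver gene expression. The labels do not state that the arrays of a group are separate animals, so p-values measure only the spread between these samples, which may be technical.

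Hepatocytes meet portal blood across a basolateral membrane rich in such carriers. Members of the Slco and Slc22 families bring in bile acids, steroid conjugates, drugs and organic cations. Slc2 proteins pass hexoses by facilitated diffusion, Slc5 proteins couple sugars and inositol to sodium, and Slc13 and Slc16 proteins carry citrate, sulfate, lactate and ketone bodies. The Slc1, Slc6, Slc7 and Slc38 families carry amino acids and their relatives such as taurine and creatine, and several Slc7 carriers need the heavy chain encoded by Slc3a2 to reach the surface. In cholestasis the loss of basolateral uptake together with a rise of basolateral export is a well-known response of the hepatocyte.

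Hepatocyte markers were bright in all groups, with a list mean of 12.45 on the log2 signal scale in control sham livers and 12.15 in ligated sham livers; with ligation 5 of the 12 matched passed as lower in sham livers, 6 did in H/R livers, and none passed as higher. Cholangiocyte markers averaged 4.75 in control sham and 8.54 in ligated sham livers, and 10 of the 11 matched passed the test as higher. The summed signal of these 11 lay between 456 and 703 in control sham and between 5130 and 11600 in ligated sham livers; 5 of the 11 were at background in control sham livers. Markers of stellate cells and myofibroblasts averaged 5.78 and 7.11 in the same groups, with 10 of 11 higher and summed signals of 1440 to 1820 against 3540 to 5380. Macrophage markers averaged 7.36 and 7.92, with 5 of 9 higher and 1 lower. Pancreatic acinar markers stood out on 2 arrays, ligated sham replicate 2 (list mean 6.58) and ligated H/R replicate 5 (7.93), against 3.18 to 3.66 on the other arrays. The number of the 101 members called in each comparison that used either array is therefore given with and without those 2 arrays; family and list counts are given over all arrays. The part of these cell types in the differences below was not tested, and in whole liver fewer cells of a type cannot be told apart from less RNA per cell.

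A signal was called above background where its group mean exceeded the mean of the brightest nonspecific control probe on each array of that group. That background was 4.51 and 4.59 in the control sham and H/R groups, 3.64 and 4.00 in the ligated sham and H/R groups, and 3.26 and 3.32 in the simvastatin groups. By this measure 57 of the 101 members were above background in at least 1 group (56.4%, against 77.0% of all genes), 38 in all 6 groups (37.6%, against 57.7%) and 44 in none. The Slc16 and Slc38 families were the most often detected in all 6 groups, with 5 of 7 and 6 of 8 members. In Slc5 only 2 of 8 members were above background in any group, Slc5a3 and Slc5a6. Of the 15 Slc22 members, 8 were above background somewhere, as were 5 of 9 in Slc2, 6 of 13 in Slco, 7 of 16 in Slc6, 8 of 14 in Slc7, 5 of 6 in Slc1 and 4 of 5 in Slc13.

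Ligation lowered far more of these carriers than it raised. Between ligated and control sham livers, 8 members rose and 39 fell at an adjusted p under 0.05, where over all genes 25.3% rose and 22.4% fell (47.6% in all). The median log2 difference was −0.29 over the members and −0.04 over all genes. Without the 2 arrays with acinar markers, 8 rose and 36 fell. The groups did not overlap for 32 members (31.7%, against 32.0% of all genes). Of the 38 members above background in all groups, 3 rose and 20 fell, against 27.2% and 27.6% of the 7748 genes detected in this way. Of the 44 members above background in no group, 14 fell and none rose (31.8% fell, against 21.7% of the 3090 such genes); the background itself was also lower in ligated livers, so these 14 falls are not read as changes in expression.

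**Figure D1:**
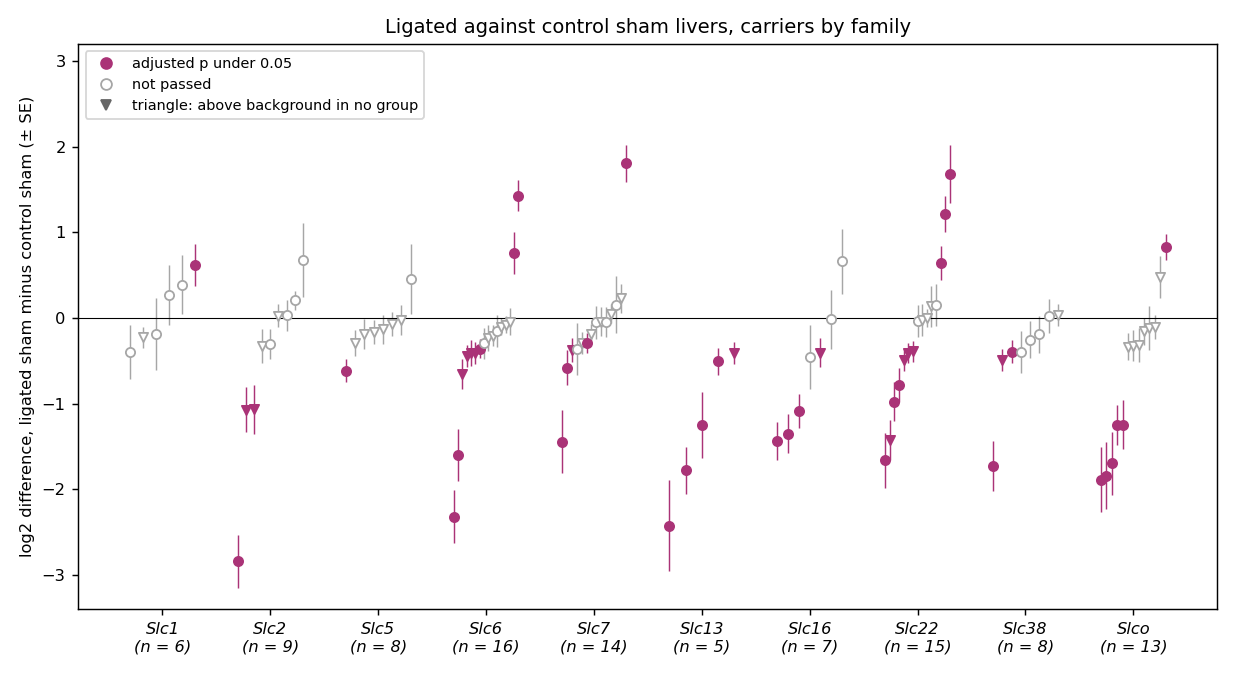
Log2 difference (± SE) between ligated sham (n = 5) and control sham (n = 5) livers for each of the 101 members, by family; filled symbols passed an adjusted p of 0.05 and triangles mark members above background in no group. All 5 Slc13 members lie below 0, and the Slco family holds 5 filled circles below −1 and 1 above 0.

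The Slco family contains uptake carriers of the rat hepatocyte for bile acids and other organic anions. Of its 13 members, 5 fell and 1 rose after ligation in sham rats, and the 5 that fell were the 5 above background in all groups: Slco1a1, Slco1a4, Slco1b2, Slco2a1 and Slco2b1. Slco1b2, Slco1a4 and Slco1a1 follow each other on chromosome 4 of the GRCr8 assembly, at chr4:176282577-176355557, chr4:176441104-176495846 and chr4:176606924-176682027, between Slco1c1 and Slco1a3. Slco1c1, Slco1a3, Slco1a6 and Slco1a5, their neighbours in the same row, were above background in no group.

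The start-proximal sequences of the pair Slco1a4 and Slco1a1, whose levels fell alike, are shown because they resemble each other more than any other pair in this row. Of the 250 bases before the start that RefSeq lists (GRCr8, minus strand; chr4:176495847-176496096 for Slco1a4 and chr4:176681993-176682242 for Slco1a1), 176 were identical in a global alignment (70.4%), against 47.2% to 55.6% for the other pairs of the 6 genes from Slco1b2 to Slco1a5. For Slco1a1 the listed start lies inside the gene span given above, so its window overlaps the end of that span. The Slco1a4 window begins right after its gene span. Capitals mark the bases identical in the alignment.
Slco1a4: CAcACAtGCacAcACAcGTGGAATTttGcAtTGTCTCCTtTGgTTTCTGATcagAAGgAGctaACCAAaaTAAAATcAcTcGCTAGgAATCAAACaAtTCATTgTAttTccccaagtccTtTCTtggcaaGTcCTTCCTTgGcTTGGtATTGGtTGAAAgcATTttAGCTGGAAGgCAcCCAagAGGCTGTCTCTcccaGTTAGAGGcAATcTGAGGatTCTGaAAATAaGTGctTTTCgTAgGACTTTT
Slco1a1: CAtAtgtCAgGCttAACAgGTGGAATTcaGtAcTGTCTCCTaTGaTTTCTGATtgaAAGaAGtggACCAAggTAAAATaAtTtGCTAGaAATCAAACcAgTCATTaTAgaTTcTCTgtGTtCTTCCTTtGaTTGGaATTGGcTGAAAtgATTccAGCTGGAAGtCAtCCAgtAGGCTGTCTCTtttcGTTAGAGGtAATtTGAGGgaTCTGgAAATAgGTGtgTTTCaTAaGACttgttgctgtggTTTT
Slco1b2, whose product takes up bile acids and bilirubin conjugates, carries within 250 bases of its start the letters GTTAAT, a half-site of the hepatocyte factor HNF1, shown in capitals within chr4:176282481-176282566 (plus strand).
Slco1b2: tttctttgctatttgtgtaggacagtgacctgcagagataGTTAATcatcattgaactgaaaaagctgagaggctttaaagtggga
Counted on both strands, GTTAAT occurred in 5 of the 81 members with a RefSeq promoter (6.17%) and in 6.46% of all 27457 promoters of that length, so the members did not carry it more often. A match is a description of letters and not a binding site.

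Slco1a1 takes up bile acids and sulfated steroids. Its log2 signal was 8.99, 9.37, 9.39, 9.44 and 9.48 in the 5 control sham livers and 6.78, 6.87, 7.26, 7.98 and 8.35 in the 5 ligated sham livers. Every ligated liver lay below every control, and the difference was −1.89 ± 0.38 (SE), a 3.70-fold fall (adjusted p = 0.000112). Slco1a4, which carries bile acids and cardiac glycosides, read 9.63, 9.92, 10.39, 10.39 and 10.42 in control sham and 7.37, 8.22, 8.41, 9.02 and 9.27 in ligated sham livers. Again the groups did not overlap, and Slco1a4 was 3.24-fold lower (−1.69 ± 0.37, adjusted p = 0.000284). Its second probe set gave −1.72. Slco1b2 read 9.82, 9.87, 9.97, 10.20 and 10.25 against 8.09, 8.62, 8.71, 9.17 and 9.30. It fell by the smaller amount of 2.37-fold with no overlap (−1.25 ± 0.29, adjusted p = 0.000546), and its second probe set gave −1.33.

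The other Slco carriers that fell were Slco2a1 and Slco2b1. Slco2a1, the prostaglandin transporter, read 9.12, 9.20, 9.51, 9.54 and 9.61 in control sham and 6.32, 7.51, 7.57, 7.68 and 8.71 in ligated sham livers, with no overlap. This was a 3.58-fold fall (−1.84 ± 0.39, adjusted p = 0.000209) in its brightest probe set. Slco2b1, a carrier of steroid sulfates, was between 8.16 and 8.62 in control sham and between 6.75 and 7.74 in ligated sham livers, 2.38-fold lower (adjusted p = 4.85e-05). Slco3a1, a widely expressed member that carries prostaglandins and thyroid hormone, moved the other way. It was at 3.38 to 3.91, under background, in control sham livers and at 3.84 to 4.86 in ligated sham livers (0.83 ± 0.15, adjusted p = 3.92e-05). No fold is given, because the ligated values lie on both sides of the control sham background of 4.51.

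Members of the Slc22 family moved in both directions. Slc22a7, which exchanges organic anions such as prostaglandins and orotate, read 8.65, 8.66, 8.98, 9.07 and 9.08 in control sham and 6.60, 6.89, 6.98, 7.45 and 8.22 in ligated sham livers. It fell 3.16-fold without overlap (−1.66 ± 0.32, adjusted p = 7.98e-05). Slc22a18 and Slc22a23, whose substrates are poorly known, fell 1.97-fold and 1.71-fold. The carnitine carrier Slc22a5 rose. It read 5.83, 5.98, 6.08, 6.46 and 6.90 in control sham and 7.34, 7.37, 7.38, 7.60 and 7.64 in ligated sham livers, a 2.32-fold rise without overlap (1.21 ± 0.21, adjusted p = 1.85e-05). Slc22a4, the ergothioneine carrier, lies beside it on chromosome 10 with Slc22a21 between them. Slc22a4 read 4.08, 4.45, 4.61, 5.22 and 5.71 in control sham and 6.05, 6.30, 6.35, 6.81 and 6.98 in ligated sham livers, a 3.22-fold rise without overlap (1.69 ± 0.34, adjusted p = 0.000124). Over the 15 Slc22 members 3 rose, the third being Slc22a15 from a mean under background, and 7 passed as lower. Of those 7, Slc22a25, Slc22a12, Slc22a6 and Slc22a13 were above background in no group.

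**Figure D2:**
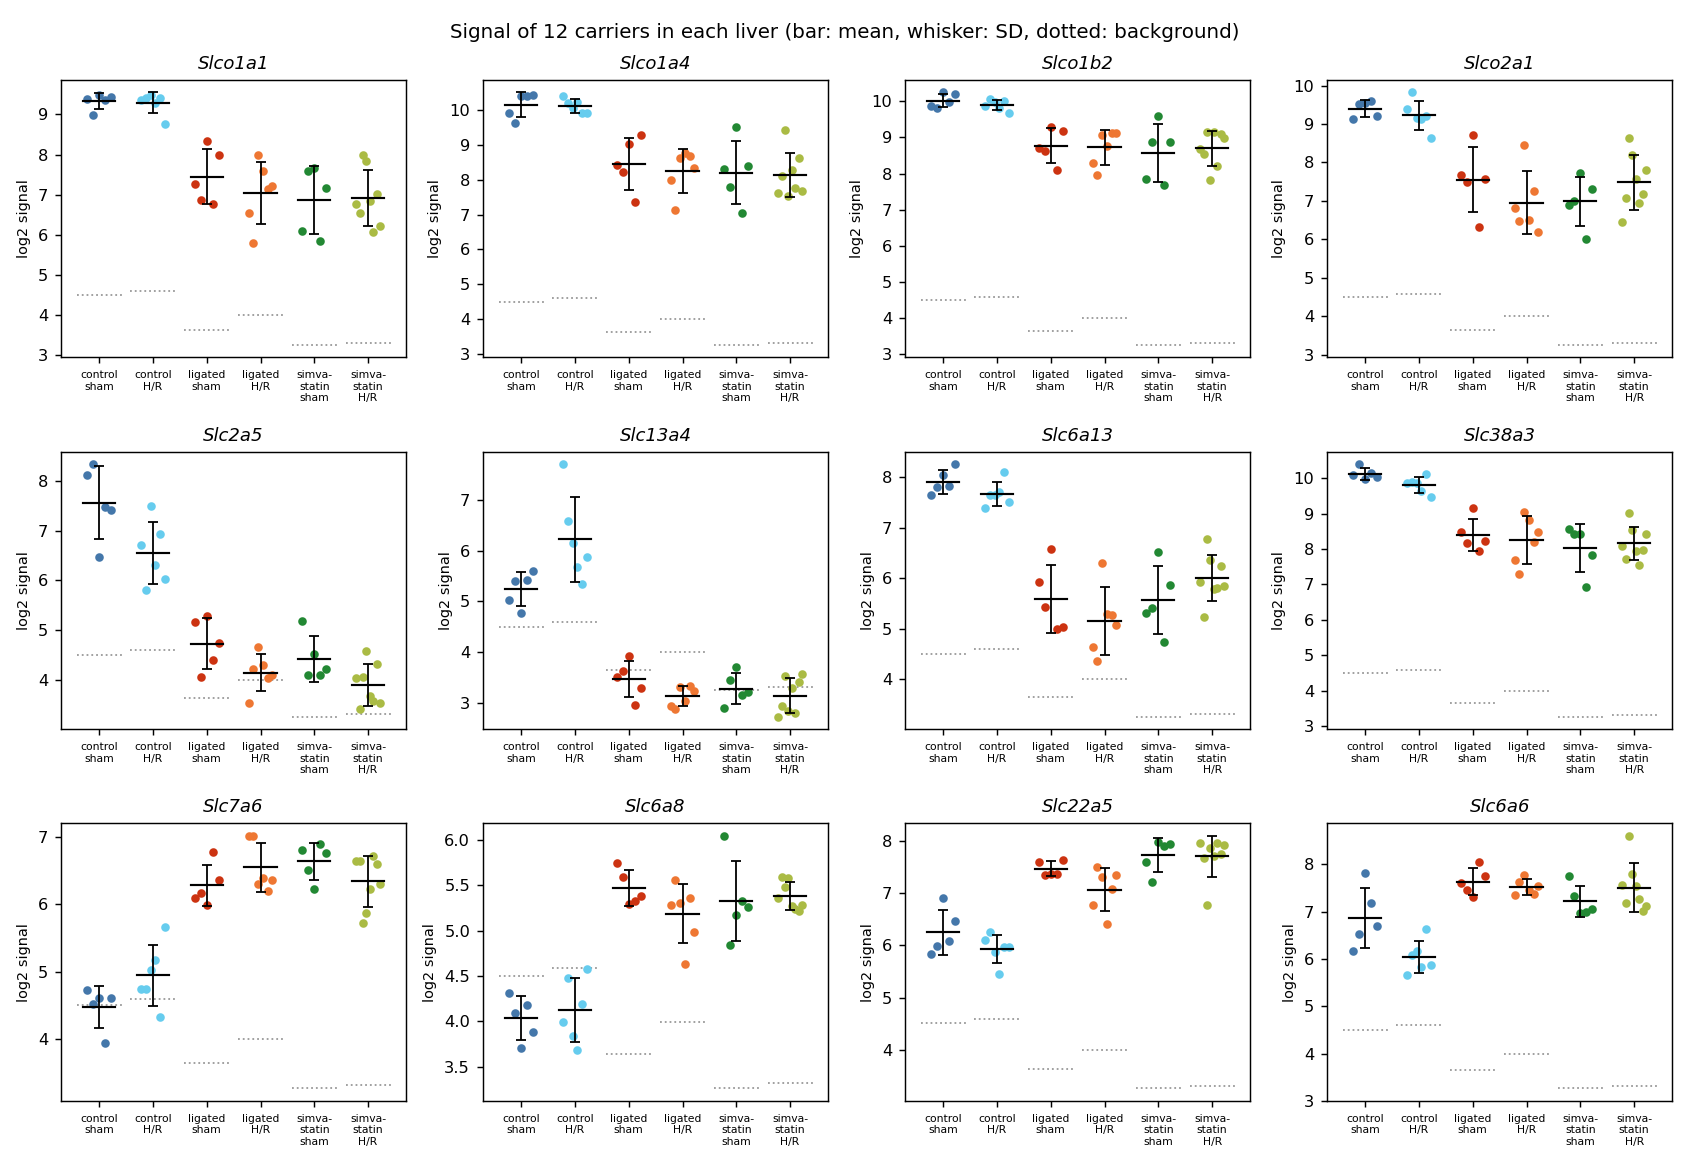
Log2 signal of 12 carriers in each of the 35 livers by group, with the group mean (bar), SD (whisker) and background (dotted line). Slco1a1, Slco1a4, Slco1b2, Slco2a1 and Slc38a3 are lower in every ligated sham liver than in every control sham liver, Slc7a6, Slc6a8 and Slc22a5 are higher, and Slc13a4 sits at background in ligated livers.

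Among sugar carriers, the fructose transporter Slc2a5 changed most and the main hepatocyte glucose transporter Slc2a2 did not pass the test. Slc2a5 read 6.47, 7.42, 7.47, 8.13 and 8.34 in control sham livers and 4.06, 4.39, 4.73, 5.16 and 5.29 in ligated sham livers. The groups were apart by more than 1 log2 unit at their nearest values, and Slc2a5 fell 7.15-fold (−2.84 ± 0.31, adjusted p = 4.54e-09). Slc2a2 read 10.98 to 11.32 in control sham and 11.20 to 11.46 in ligated sham livers, a difference of 0.21 ± 0.11 (adjusted p = 0.125; 95% interval −0.02 to 0.44). Slc2a4 and Slc2a6 also passed as lower but were above background in no group. The sodium-coupled vitamin carrier Slc5a6 fell 1.53-fold. The inositol carrier Slc5a3 differed by 0.46 ± 0.40 and did not pass (adjusted p = 0.361).

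All 5 Slc13 members passed as lower after ligation, but Slc13a1 and Slc13a2 were under background in both sham groups. Slc13a5, the citrate carrier, read 5.43, 6.56, 6.76, 8.00 and 8.09 in control sham livers and 4.00, 4.01, 4.25, 4.33 and 6.12 in ligated sham livers. A single ligated liver reached into the control range, and the fall was 5.36-fold (−2.42 ± 0.53, adjusted p = 0.000332). Slc13a4, a sulfate carrier, read 4.77, 5.03, 5.40, 5.42 and 5.59 in control sham and 2.97, 3.29, 3.52, 3.62 and 3.92 in ligated sham livers, where its mean was under background. It was at least 2.57-fold lower (−1.78 ± 0.27, adjusted p = 2.05e-06). Slc13a3, which carries succinate and other dicarboxylates, was 5.99 to 6.81 in control sham and 4.74 to 5.58 in ligated sham livers, 2.37-fold lower (adjusted p = 0.00808).

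Of the 7 Slc16 members, which include monocarboxylate carriers, 4 passed as lower in sham livers, 1 of them (Slc16a8) under background, and none rose. Slc16a1, which moves lactate and ketone bodies, read 10.20, 10.21, 10.38, 10.42 and 10.48 in control sham and 8.44, 8.53, 8.90, 9.01 and 9.63 in ligated sham livers. It fell 2.70-fold with no overlap (−1.43 ± 0.22, adjusted p = 1.93e-06). Slc16a7, a carrier with high affinity for pyruvate, was 8.23 to 8.50 against 6.45 to 7.59, 2.55-fold lower (adjusted p = 7.81e-06). Slc16a13 fell 2.12-fold in its brightest probe set, while its second probe set gave 0.10 and the mean of both gave −0.49 (adjusted p = 0.016). Slc16a3, the lactate exporter of glycolytic cells, was 3.46 to 5.00 in control sham and 4.20 to 5.79 in ligated sham livers and did not pass (0.66 ± 0.38, adjusted p = 0.146). The promoter of Slc16a1 holds CACGTG, the E-box read by sugar-responsive and growth-related factors, shown in capitals within chr2:194812410-194812489 (plus strand, GRCr8).
Slc16a1: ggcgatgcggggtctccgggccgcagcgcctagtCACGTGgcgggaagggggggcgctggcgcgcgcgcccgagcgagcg
CACGTG occurred in 10 of the 81 member promoters (12.3%) and in 5.79% of all promoters, which is given as a description with no test.

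Amino acid carriers moved in both directions. Slc38a3, which carries glutamine, histidine and asparagine in hepatocytes, read 9.98, 10.02, 10.09, 10.15 and 10.40 in control sham and 7.95, 8.17, 8.22, 8.49 and 9.16 in ligated sham livers. It fell 3.32-fold without overlap (−1.73 ± 0.29, adjusted p = 1.04e-05). Its relatives Slc38a2 and Slc38a4, neighbours on chromosome 7, did not pass: Slc38a2 differed by −0.25 ± 0.22 (95% interval −0.69 to 0.19) and Slc38a4 by 0.03 ± 0.20 (−0.37 to 0.43). Slc6a13, which carries GABA, betaine and taurine, read 7.65, 7.80, 7.81, 8.04 and 8.26 against 4.99, 5.03, 5.43, 5.92 and 6.59. It fell 4.99-fold without overlap (−2.32 ± 0.31, adjusted p = 2.10e-07).

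Slc6a9, a glycine carrier, was 6.09 to 7.89 in control sham and 4.79 to 6.34 in ligated sham livers, 3.03-fold lower (adjusted p = 4.25e-05), and its other probe sets gave −0.95 and −1.20. Slc7a11, the cystine-glutamate exchanger, was 3.72 to 6.02 in control sham livers and under background at 2.87 to 3.64 in ligated sham livers. It was at least 1.95-fold lower (−1.44 ± 0.37, adjusted p = 0.00155). The arginine carrier Slc7a2 also passed as lower (−0.58 ± 0.20, adjusted p = 0.0185), with its ligated mean above and its control mean under background; without ligated sham replicate 1 its adjusted p was 0.055, and without the arrays with acinar markers 0.051. The neutral amino acid carriers Slc1a4 and Slc7a5 and the arginine exchanger Slc7a7 did not pass (−0.19 ± 0.42, 0.16 ± 0.33 and −0.04 ± 0.17).

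Fewer amino acid carriers rose. Slc7a6, an exchanger of arginine for glutamine, read 3.94, 4.52, 4.60, 4.60 and 4.72 in control sham livers, a mean under background, and 6.00, 6.10, 6.17, 6.37 and 6.77 in ligated sham livers. It was at least 3.12-fold higher without overlap (1.81 ± 0.22, adjusted p = 3.67e-08). Slc6a8, the creatine carrier, read 3.71, 3.89, 4.10, 4.18 and 4.31 against 5.29, 5.32, 5.38, 5.60 and 5.75, at least 1.86-fold higher (1.43 ± 0.18, adjusted p = 7.87e-08); its dimmer second probe set gave 0.14. Slc6a6, the taurine carrier, was 6.17 to 7.81 in control sham and 7.31 to 8.05 in ligated sham livers. The ranges overlapped and Slc6a6 rose 1.69-fold (0.76 ± 0.25, adjusted p = 0.0121; adjusted p = 0.058 without control sham replicate 1). Slc1a1, a glutamate and cysteine carrier, passed narrowly from a mean under background (0.62 ± 0.25, adjusted p = 0.0368). Its call was lost without control sham replicate 1, 3 or 4 or ligated sham replicate 1, 4 or 5. A second Slc1a1 probe set gave 1.42, with a mean over all arrays of 4.02 against 4.26 for the one used.

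Livers that had been bled and resuscitated gave a second comparison of ligation, since ligated H/R and control H/R share no array with the sham groups. There 14 members rose and 35 fell, against 24.7% and 22.3% of all genes. With each array centred on its median, 11 members rose and 53 fell. Centring also moved the counts over all 13439 genes, to 2611 higher and 4795 lower. Without the arrays with acinar markers 14 members rose and 36 fell. Of the 44 members above background in no group, 10 fell here and none rose (22.7% fell, against 21.7% of the 3090 such genes). The background was also lower in ligated than in control H/R livers (4.00 and 4.59), so these 10 falls are not read as changes in expression. Of the 47 members called in sham livers, 36 were called in the same direction after H/R, which is 76.6% of the first list and 73.5% of the second. Over all genes the corresponding shares were 77.0% and 78.1%, so the members repeated about as often as other genes. None of the members was called in opposite directions, and all 47 kept their sign. The 36 repeats include Slc13a1, Slc22a12, Slc22a25, Slc38a5, Slc6a7 and Slc7a14, which were above background in no group.

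**Figure D3:**
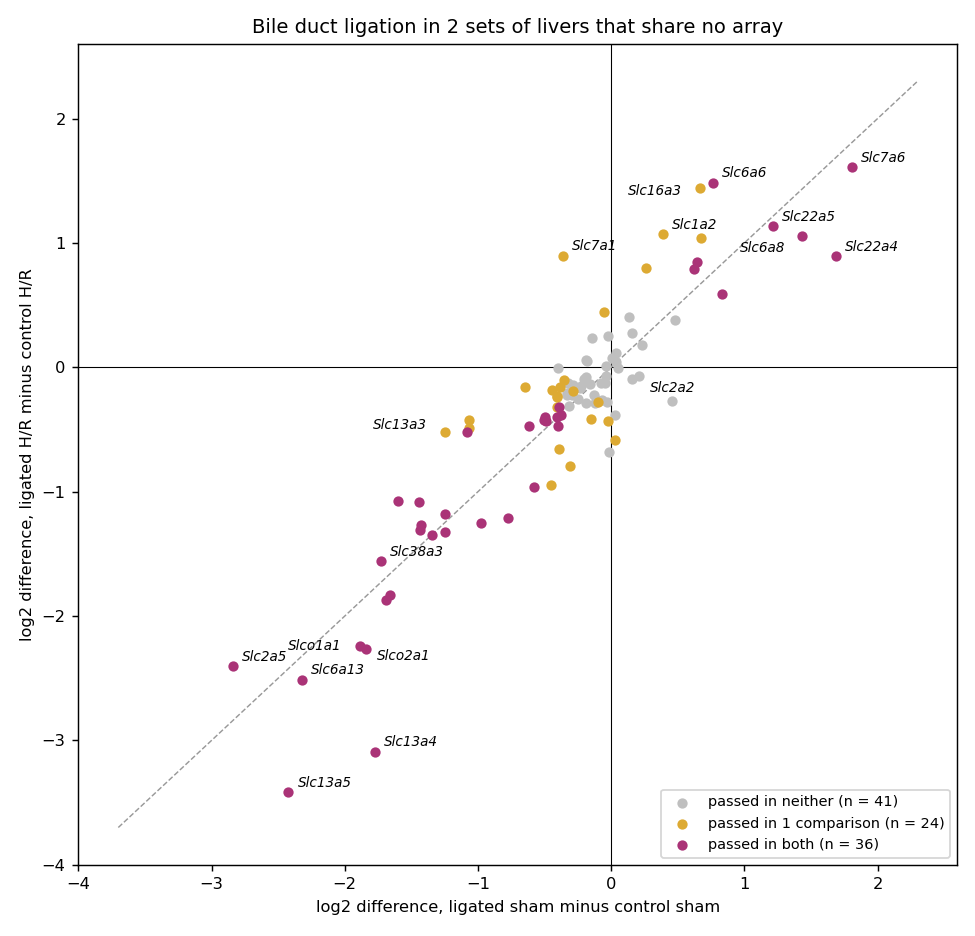
Log2 difference with ligation in sham livers (horizontal) and in H/R livers (vertical) for the 101 members; the dashed line marks equal differences. The 36 members called in both comparisons lie in the lower left and upper right, and among those called once Slc7a1 and Slc7a8 lie in the upper left and Slc2a3 in the lower right.

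The same uptake carriers were low again after H/R. Slco1a1 had a lowest, median and highest value of 8.76, 9.38 and 9.47 in control H/R livers and 5.80, 7.17 and 7.98 in ligated H/R livers (4.73-fold lower, adjusted p = 2.42e-06). Slco1a4 was 9.91, 10.13 and 10.41 against 7.12, 8.47 and 8.78 (3.65-fold lower), and Slco1b2 was 9.68, 9.92 and 10.08 against 7.97, 8.92 and 9.13 (2.26-fold lower). Slco2a1 was 8.64, 9.18 and 9.82 against 6.21, 6.66 and 8.47 (4.81-fold lower). None of these 4 overlapped between the groups. Slc2a5 was 5.81, 6.52 and 7.49 against 3.54, 4.16 and 4.66 (5.29-fold lower), Slc6a13 was 5.70-fold lower and Slc38a3 2.95-fold lower, again without overlap. Slc22a7 was 3.56-fold, Slc16a7 2.54-fold, Slco2b1 2.51-fold, Slc16a1 2.48-fold, Slc22a18 2.38-fold and Slc22a23 2.32-fold lower.

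The citrate and sulfate carriers Slc13a5 and Slc13a4 showed their widest gap in this comparison, while Slc13a3 did not pass in it (log2 difference −0.52). Slc13a5 was 8.07, 9.14 and 9.82 in control H/R livers and 4.63, 5.34 and 7.16 in ligated H/R livers, 10.7-fold lower (−3.42 ± 0.49, adjusted p = 6.05e-07). Slc13a4 was 5.34, 6.01 and 7.70 against 2.88, 3.14 and 3.34, under background, and at least 4.67-fold lower (−3.09 ± 0.25, adjusted p = 4.57e-12). In both genes the control H/R mean was above the control sham mean. Slc6a6, on the rising side, also had its wider gap here, but its control H/R mean was below its control sham mean. Slc6a6 was 5.66, 5.98 and 6.63 in control H/R and 7.36, 7.51 and 7.78 in ligated H/R livers, 2.80-fold higher without overlap (adjusted p = 2.18e-06). Slc7a6 was 3.05-fold higher, Slc6a8 higher by 1.06 on the log2 scale, Slc22a5 2.19-fold higher and Slc22a4 1.86-fold higher; Slc22a4 had an adjusted p of 0.0183, or 0.076 without control H/R replicate 6.

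Several carriers passed as higher only in the H/R set, and no test of the difference between the sets passed for any member. Slc16a3 was 4.13, 4.78 and 5.35 in control H/R and 5.13, 6.32 and 7.39 in ligated H/R livers, 2.72-fold higher (1.44 ± 0.35, adjusted p = 0.000847). The glucose carrier Slc2a1 was 5.48, 6.26 and 8.00 against 6.87, 7.57 and 8.36, 2.05-fold higher with overlap (adjusted p = 0.0302), a call lost when control H/R replicate 2, 3 or 5 or ligated H/R replicate 1 or 2 was left out. The cationic amino acid carrier Slc7a1 was 1.86-fold higher (adjusted p = 0.00767), and the glutamate carrier Slc1a2 at least 1.03-fold higher (adjusted p = 0.00533), from a mean under background. A second, dim Slc1a2 probe set with a mean of 2.36 over all arrays gave −0.13. Slc7a8, which carries neutral amino acids, also passed (0.44 ± 0.18, adjusted p = 0.0392) from a mean under background. That call was lost in 11 of 20 alternatives, with adjusted p from 0.013 to 0.17, among them leaving out control H/R replicate 1, 2, 3 or 5 or ligated H/R replicate 1, 2 or 3. The neutral amino acid carrier Slc1a5 was 1.74-fold higher (adjusted p = 0.0388), a call lost when control H/R replicate 2, 3 or 5 or ligated H/R replicate 1, 2 or 4 was left out. Cholangiocyte, stellate cell and macrophage markers passed as higher in this comparison in 10 of 11, 8 of 11 and 6 of 9, and none passed as lower. None of the 5 matched neutrophil markers passed, and 3 of them were at background in control H/R and 2 in ligated H/R livers. Their list mean differed widely among ligated H/R livers, from 4.46 to 7.47, against 4.64 to 6.44 in control H/R livers. The part of these cell types in these rises was not tested.

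Of 8 matched genes for proteins that hold carriers at the membrane, 2 rose and 3 fell with ligation in sham livers, where 25.3% of all genes rose and 22.4% fell. These shares, and those of the lists of regulators, bile acid carriers, amino acid response and osmolyte genes that follow, are read against that background, and no list was tested as a set. Slc3a2, the heavy chain of Slc7 exchangers including Slc7a6 and Slc7a11, fell 2.05-fold (adjusted p = 2.9e-07), and the scaffolds Pdzk1 and Nherf1, which bind Slco and Slc22 carriers, fell 2.76-fold and 2.56-fold. The chaperones of the Slc16 carriers rose, Bsg 1.49-fold and Emb 2.59-fold, while Slc16a1 and Slc16a7 fell. Of 15 regulators, 4 rose and 5 fell. Hnf4a, Nr1h4, Nr1i2 and Nr1i3, nuclear receptors of hepatocyte and bile acid programs, fell 1.72-fold, 2.13-fold, 2.01-fold and 2.18-fold, and the sugar sensor Mlxipl fell 3.19-fold. Txnip, an arrestin that restrains glucose carriers, rose 6.34-fold and is the only one named here of the 4 that rose. Of 11 bile acid carriers and export pumps outside the member families, 1 rose and 5 fell in sham livers. The sodium-dependent bile acid carrier Slc10a1 fell 4.35-fold, and the others that fell are not named here. The basolateral export pump Abcc3 rose at least 6.24-fold. It was the only 1 of the 11 that passed as higher, so Abcc4 and Slc51a on the same list did not. Slc51a was at background in both sham groups.

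Among 16 genes of the amino acid response, 7 fell and none rose in ligated sham livers, with Asns 2.60-fold and Trib3 2.09-fold lower. The 7 include the members Slc6a9 and Slc7a11. With ligation in H/R livers 2 of the 16 rose and 6 fell, against 24.7% and 22.3% of all genes. Among 7 osmolyte genes, 3 rose and 2 fell in ligated sham livers. Nfat5, the tonicity-responsive factor, rose 2.50-fold, Akr1b1, which makes sorbitol, rose 5.07-fold, and Slc6a6 is the third. Slc6a13 and the chaperone Hspa4l fell.

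Hemorrhage and resuscitation touched few carriers. In control rats 2 of 101 members rose and none fell, where 0.856% of all genes were called and 0.365% rose. Both arrays with acinar markers came from ligated rats and did not enter this comparison. Slc5a3, the sodium-coupled inositol carrier, read 5.58, 5.66, 5.73, 5.90 and 5.90 in the 5 control sham livers and 6.40, 6.62, 7.49, 8.01, 8.35 and 9.09 in the 6 control H/R livers. All H/R livers were above all sham livers, and Slc5a3 rose 3.75-fold (1.91 ± 0.39, adjusted p = 0.0104; 0.096 when only these 2 groups were fitted). A second, dim Slc5a3 probe set with a mean of 2.31 over all arrays gave −0.08, and the mean of both probe sets gave 0.91. Slc13a5 read 5.43, 6.56, 6.76, 8.00 and 8.09 in sham and 8.07, 8.70, 8.94, 9.34, 9.41 and 9.82 in H/R livers. The ranges touched, and Slc13a5 rose 4.23-fold (2.08 ± 0.51, adjusted p = 0.0391). That call was lost in 11 of 18 alternatives, with adjusted p from 0.023 to 0.15 over all of them, among them leaving out control sham replicate 2, 4 or 5 or control H/R replicate 1, 2, 3, 4 or 6.

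Other carriers came close in control rats. Slc2a3, the neuronal glucose carrier, had the third smallest p (0.48 ± 0.13, adjusted p = 0.0554) but was under background in both groups. Slc7a1 read 6.55, 6.71, 6.87, 7.42 and 7.61 in sham and 4.81, 5.00, 5.67, 6.31, 6.74 and 7.04 in H/R livers, a difference of −1.10 ± 0.29 (adjusted p = 0.0571). Slc13a4 differed by 0.98 ± 0.26 (adjusted p = 0.0594) and Slc6a6 by −0.84 ± 0.24 (adjusted p = 0.0892). Slc16a10, an aromatic amino acid carrier, was 6.03 to 6.88 in sham and 7.10 to 7.84 in H/R livers, without overlap, yet did not pass (0.92 ± 0.33, adjusted p = 0.198). With Slc5a3 it was 1 of 2 members (1.98%) whose groups did not overlap, as were 2.00% of all genes. In the osmolyte list Hspa4l rose 1.76-fold beside Slc5a3, while Nfat5 differed by 0.01 and Akr1b1 by −0.04.

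**Figure D4:**
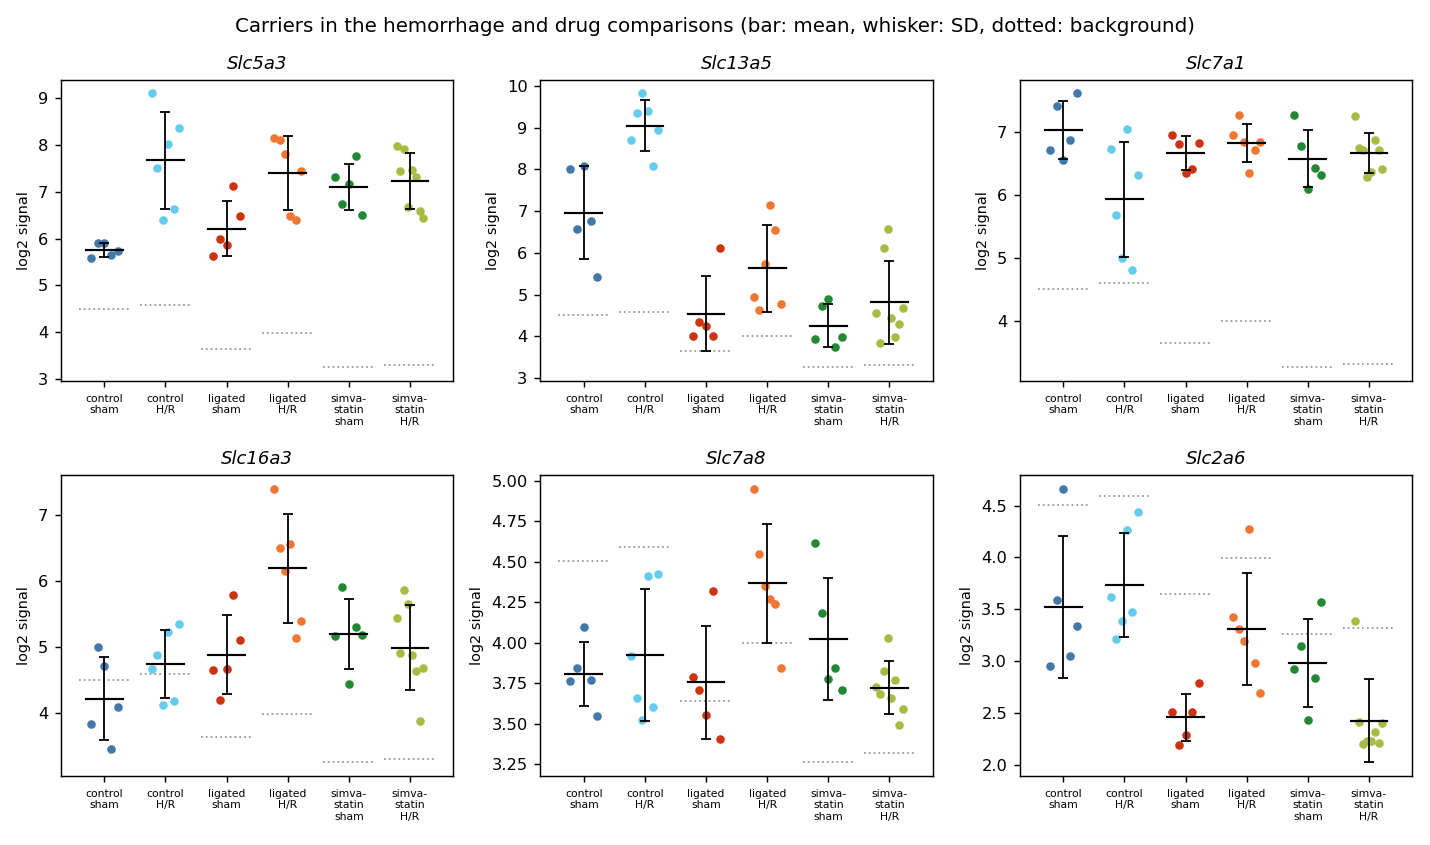
Log2 signal of 6 carriers in each of the 35 livers by group, with the group mean (bar), SD (whisker) and background (dotted line). Slc5a3 and Slc13a5 are higher in control H/R than in control sham livers, and Slc16a3 and Slc7a8 are highest in ligated H/R livers.

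In ligated rats no member passed after H/R (limma; 0.134% of all genes did, 0.119% as higher and 0.0149% as lower), and 14 had an unadjusted p under 0.05; the count was also 0 without the arrays with acinar markers. Slc5a3 read 5.62, 5.87, 5.99, 6.48 and 7.11 in ligated sham and 6.39, 6.48, 7.43, 7.80, 8.09 and 8.15 in ligated H/R livers, a difference of 1.18 ± 0.39 (adjusted p = 0.250). Slc13a5 differed by 1.09 ± 0.51 (adjusted p = 0.459). Slc2a9, a urate carrier, was 5.13 to 5.66 in sham and 4.36 to 5.06 in H/R livers and had the smallest p (−0.66 ± 0.17, adjusted p = 0.0992). It was the single member whose groups did not overlap (0.99%, against 1.19% of genes). Slc16a3 differed by 1.30 ± 0.36 (adjusted p = 0.151) and Slc7a8 by 0.61 ± 0.19 (adjusted p = 0.203).

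The H/R effect did not differ detectably between ligated and control rats for any member (limma; 0.00744% of genes passed), also without the arrays with acinar markers. An unadjusted p under 0.05 was found for 7 members (6.93%, against 5.45% of all genes). For Slc13a4 the difference of the effects was −1.31 ± 0.37 (adjusted p = 0.561), and for Slc7a1 it was 1.26 ± 0.41 (adjusted p = 0.654; 95% interval 0.43 to 2.09). For Slc5a3 it was −0.73 ± 0.55, with an interval of −1.84 to 0.38.

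In rats given simvastatin no member passed after H/R (limma; 0% of genes did), and 3 had an unadjusted p under 0.05: Slc2a8 (−0.37), Slc22a15 (−0.39) and Slc2a6 (−0.56, under background), each at an adjusted p of 0.888. Slc5a3 read 6.51, 6.74, 7.16, 7.30 and 7.76 in simvastatin sham livers, and its lowest, median and highest values were 6.43, 7.38 and 7.97 in simvastatin H/R livers. The difference was 0.13 ± 0.36 with an interval of −0.61 to 0.87. The median of the simvastatin sham livers, 7.16, lay above all 5 ligated sham livers, but the difference of 0.88 ± 0.40 did not pass (adjusted p = 0.414). The test of the H/R effect with against without simvastatin gave −1.05 ± 0.53 for Slc5a3 (adjusted p = 0.992). No member passed that test, with or without the arrays with acinar markers (limma; 0.00744% of genes did), and 7 had an unadjusted p under 0.05, led by Slc2a6 (−1.41 ± 0.38), Slc7a8 (−0.91 ± 0.26) and Slc22a23 (0.86 ± 0.26).

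Ligated sham livers with and without simvastatin were compared next. No member passed, with or without the arrays with acinar markers (limma; 0.781% of genes did), and 5 had an unadjusted p under 0.05; the smallest p was that of Slco3a1 (−0.45 ± 0.15, adjusted p = 0.211). Slc2a3 and Slc6a14, both under background, came next (−0.37 and −0.26). No member had groups that did not overlap, against 2.06% of all genes. The carriers Slco1a1 and Slc2a5, lowered by ligation, were low here too. Slco1a1 read 5.86, 6.10, 7.17, 7.58 and 7.66 in simvastatin sham livers, and Slc2a5 read 4.09, 4.10, 4.22, 4.52 and 5.19. These values lay below every control sham liver.

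In H/R rats 1 member passed, as lower, where 1.35% of all genes did, 0.848% as higher and 0.506% as lower. No member had groups that did not overlap, against 0.96% of all genes. Slc7a8, a neutral amino acid exchanger that pairs with Slc3a2, had a lowest, median and highest value of 3.84, 4.31 and 4.95 in ligated H/R livers and 3.49, 3.70 and 4.03 in simvastatin H/R livers. It was 1.56-fold lower (−0.64 ± 0.17, adjusted p = 0.0417), close to background in both groups. The call was lost in 12 of 23 alternatives, among them leaving out ligated H/R replicate 1, 2 or 4 or simvastatin H/R replicate 1, 2, 5, 6, 7 or 8. Without the arrays with acinar markers its adjusted p was 0.055, and the 1 member that passed was Slc16a3 (−1.40, adjusted p = 0.019).

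Slc16a3 over all arrays had a lowest, median and highest value of 5.13, 6.32 and 7.39 in ligated H/R livers and 3.89, 4.89 and 5.87 in simvastatin H/R livers, 2.29-fold lower and just short of the threshold (−1.19 ± 0.32, adjusted p = 0.0539). It passed without ligated H/R replicate 5 or 6 or simvastatin H/R replicate 3 or 4, with adjusted p from 0.019 to 0.046. Slc2a6, above background in no group, differed by −0.89 ± 0.25 (adjusted p = 0.0603), and Slc22a5 by 0.63 ± 0.18 (adjusted p = 0.0727). The neutrophil list mean ranged from 4.46 to 7.47 over ligated H/R livers and from 4.41 to 5.71 over simvastatin H/R livers, with summed signals of 310 to 5310 and 250 to 1390. Cxcr2 and Camp were at background in both groups and Csf3r in the second. The part of these cells in the Slc16a3 and Slc7a8 values was not tested. Slco1a1 was 6.06 to 8.00 and Slc13a4 2.73 to 3.57 in simvastatin H/R livers, below every control H/R liver.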

How the data were processed

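Log2 signals of 31139 probe sets on 35 arrays were used as the authors deposited them; the normalization was not given in the sources used here, and the extraction label describes histology only. Values ran from 1.51 to 13.79, array medians from 3.97 to 4.29, and no pair of arrays was identical. GEO's platform annotation lists 1 gene for 19069 probe sets, several for 572 and none for 11498; the brightest single-gene probe set stood for each of 13439 genes. Group means were fitted over all arrays with limma 3.58.1 in R 4.3.3, and p-values were Benjamini-Hochberg adjusted over all genes for each comparison, with 0.05 as the threshold. The script was tested on simulated data. For an "at least" fold, the dimmer group enters as the mean over its arrays of the higher of the array's background and the gene's own value; no fold is given where neither group exceeds background. Members and lists were chosen with earlier results of these data known. Members were named in a comparison if they passed (at most the 15 largest rises and 15 largest falls where over 20 did; the 3 of smallest p where fewer than 3 did), plus names fixed for their roles. Some items of these families are not reported here. Replicate numbers follow sample order and pair nothing. Alternatives were another normalization, centring, filtering, array weights, moderation, probe set rule, fewer groups, a title-ending block and leaving out arrays; leaving out the arrays with acinar markers was chosen after seeing the data. Promoters and positions are from RefSeq (GRCr8), and 81 of 101 members matched a promoter.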

Additional observations from a re-analysis of the deposited data

Results flagged for a closer look

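In 186 groups of 5 to 8 livers (31 carriers in 6 groups), 9 held a liver whose gap to the nearest other value was large against the group's range. Chance alone flags about 1 in 20 groups. In ligated sham livers, Slc13a5 read 6.12 in replicate 5 and 4.00 to 4.33 in the others. Replicate 3 of the simvastatin H/R group was low in both neighbouring genes of the carnitine pair, with Slc22a4 at 5.02 against 6.20 to 7.23 and Slc22a5 at 6.78 against 7.68 to 7.97. Slc2a6, above background in no group, read 3.39 in simvastatin H/R replicate 1 against 2.20 to 2.41. The glycine carrier Slc6a9 read 6.44 in simvastatin sham replicate 1 against 5.01 to 5.18. Slc7a6 was 3.94 in control sham replicate 4 against 4.52 to 4.72, all near background. Slco1a1 was low in 1 liver of each control group, at 8.99 in control sham replicate 2 against 9.37 to 9.48 and at 8.76 in control H/R replicate 6 against 9.29 to 9.47. Slco2b1 read 6.00 in simvastatin sham replicate 4 against 6.88 to 7.15.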

How the results depend on the processing

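With only genes above the 30th percentile, 31 of the 52 members then tested were called with ligation in sham livers. There 8 members rose and 23 fell, and of the 9407 genes then tested 3208 rose and 2308 fell. For H/R in control rats the count was 0 with only the groups compared, 1 with trend and robust moderation, and 4 both with array weights and above the 30th percentile. Over all genes, 8 rose and 3 fell with only the groups compared, and 41 and 57 with trend and robust moderation. With array weights 47 genes rose and 60 fell, and above the 30th percentile 60 and 69 of 9407 did. For simvastatin in H/R rats the member count was 6 with array weights, 2 above the 30th percentile and 0 with the title ending as a block. Over all genes, array weights gave 451 higher and 293 lower, against 114 and 68 in the main fit. Above the 30th percentile 133 of 9407 genes rose and 71 fell, and with the block 10 rose and 3 fell. Leaving out each replicate in turn gave 40 to 48 member calls for ligation in sham livers and 41 to 52 for ligation in H/R livers. It gave 1 to 5 for H/R in control rats, 0 to 3 for simvastatin in H/R rats and 0 to 0 elsewhere. Over all genes these fits gave 3115 to 3496 higher and 2559 to 3223 lower for ligation in sham livers. In H/R livers they gave 3025 to 3356 and 2552 to 3012. For H/R in control rats 16 to 93 genes rose and 31 to 106 fell, and for simvastatin in H/R rats 71 to 223 and 29 to 148. Values not past the threshold changed sign: Slc38a4 with ligation in sham livers was −0.16 after centring and −0.03 to 0.10 over left-out replicates; Slc2a2 with ligation in H/R livers was −0.11 to 0.02; Slc5a3 was −0.52 to 0.02 with ligation in H/R livers and −0.02 to 0.30 with H/R in simvastatin rats. Centring gave 6 higher and 53 lower with ligation in sham livers, and moved the median of all genes from −0.04 to −0.23. Over all 13439 genes it gave 2594 higher and 5128 lower. The causes were not tested. No paired analysis was possible because the labels carry no replicate number shared between groups. Control and untreated ligated livers share no title ending, so that label and ligation cannot be told apart. The same holds for simvastatin in sham livers. In H/R livers, those with and without simvastatin share an ending on few arrays only, and the block fit there rests on those. Members near background are limited by the signal.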
